A study of Rattus norvegicus with 52 samples.

Results

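The Smad family was followed through 48 RNA libraries of sorted rat mammary cells. Its members were taken by gene symbol (Smad1, Smad2, Smad3, Smad4, Smad5, Smad6, Smad7 and Smad9) and made up 8 of the 17356 genes counted in every library. Levels are in CPM, read counts scaled to a library size of 1000000 counts, with library sizes adjusted by TMM over the 48 libraries. They compare libraries for 1 gene, not genes with each other, since transcript lengths were not used.

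The study asked what loss of Cdkn1b, which codes for the cell cycle inhibitor p27, does to the cell types of the rat mammary gland. Wild-type (WT, Cdkn1b+/+) and Cdkn1b-/- (KO) females of the inbred ACI strain were littermates of heterozygous crosses, and both genotypes drew equally on the em1 (DEL-32) and em4 (DEL-65) lines, made in outbred SD rats and backcrossed to ACI. The glands sorted came from early and late backcross generations, and the labels do not tell which library had which, so some rats may have kept SD background. The KO rats lacked p27 in every cell of the body and had cataracts from birth. At 9 weeks, 16 libraries held 4 sorted populations of each genotype, with 2 libraries each, numbered 1 and 2: basal/myoepithelial cells (Cd24+ Cd29HIGH), luminal progenitors (LP; Cd24+ Cd29LOW) taken as Cd49b+ or as PNA+ cells, and mature luminal cells (Cd24+ Cd29LOW Cd49b- PNA-). At 4 weeks, 11 libraries held 3 WT basal, 3 WT luminal, 2 KO basal and 3 KO luminal samples. At 6 weeks, 9 libraries held 3 WT basal, 2 WT luminal, 2 KO basal and 2 KO luminal samples. A further 12 libraries came from basal and luminal cells of female rats that carried no Cdkn1b deletion and received control treatment or estradiol (E2) implants for 3 weeks, with 2 ACI libraries and 1 Brown Norway (BN) library for each cell type and treatment. ACI rats are prone to E2-induced mammary tumours and BN rats are resistant. The titles of the BN libraries carry the numbers of more than 1 animal. The luminal titles of these rats name CD49b and PNA, which the luminal titles of 4 and 6 weeks do not. They do not say which cells were kept, so the luminal fractions of the experiments may differ.

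Smad proteins carry signals of the TGF-beta superfamily from receptors at the cell surface to genes in the nucleus. Receptors for TGF-beta and activin act on Smad2 and Smad3, and receptors for bone morphogenetic proteins (BMPs) act on Smad1, Smad5 and Smad9; these receptor-regulated Smads then join the common partner Smad4. Smad6 and Smad7 are inhibitory, block the other Smads or the receptors, and are themselves induced by the pathway. In the mammary gland TGF-beta restrains the growth of ducts, and BMPs take part in the exchange between luminal and basal cells. Phosphorylation turns Smads on, so RNA levels do not measure pathway activity.

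Library totals lay between 7985619 and 33859550 counts, and from 7716 to 15403 genes were detected. Cdkn1b RNA lay between 1.99 and 4.43 CPM in the 8 KO libraries of 9 weeks and between 7.17 and 16.5 CPM in the 8 WT libraries, but the genotypes overlapped at 4 weeks and at 6 weeks, where KO libraries reached 33.8 CPM. The deletions are small, so gene counts do not read the deletion itself. Basal markers lay between 10850 and 14370 CPM in basal and between 154 and 1810 CPM in luminal libraries of 9 weeks. The LP and mature luminal labels did not follow their markers: the sum of 3 luminal progenitor markers lay between 105 and 491 CPM in LP and between 152 and 488 CPM in mature luminal libraries, and the sum of 4 hormone-sensing luminal markers was higher in LP (110 to 307 CPM) than in mature luminal libraries (41.9 to 125 CPM, overlapping). Of the hormone-sensing markers 3 of 4 were called higher in LP, and of 6 general luminal markers 4 were called lower (sums of 16910 to 38630 CPM in LP and 30790 to 62240 CPM in mature luminal libraries). Some libraries stood apart. The library labelled 6-week KO luminal replicate 2 had 9241 genes detected, 33.8 CPM of Cdkn1b, 8039 CPM of adipocyte markers and 1571 CPM of endothelial markers. The 6-week WT basal replicate 3 had the lowest total and 77.0% of its counts assigned to no gene. The ACI E2 basal replicate 1 had the fewest genes detected, with 79.2 CPM of luminal and 2519 CPM of pericyte markers, and the ACI E2 luminal replicate 1, from the same animal by its title, had 9184 genes detected.

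Comparisons used the quasi-likelihood test of edgeR, with p-values adjusted by the Benjamini-Hochberg method over all genes tested (written as edgeR adjusted p), and a gene was called at an adjusted p under 0.05. Differences are on the log2 scale with their standard error (SE). Of the 8 members, 7 passed the filter on low counts in every comparison, and Smad9 passed in none. The library numbers of 9 weeks paired the populations of a genotype, so differences between populations are also given with that number as a block. The genotype test in LP took PNA+ and Cd49b+ libraries of 1 number as separate, giving 4 libraries against 4. Such libraries deviated from their group means together (Pearson's r 0.673 in KO and 0.877 in WT rats). The p-values and SEs of that test may thus be too small. Comparisons of LP with basal or mature luminal cells also took these libraries as separate, with or without the block. Their p-values and SEs thus rest on libraries that were not independent. Basal and mature luminal cells had 2 libraries against 2. In bulk RNA of sorted cells, fewer cells of a type and less RNA per cell cannot be told apart.

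Smad9, the third BMP-activated Smad, had at least 1 count in 9 of the 48 libraries and 42 counts in all. The ACI E2 basal replicate 2 held 21 of them and the ACI control basal replicate 2 held 10. In the 39 libraries at 0, 3 counts would have stood for 0.102 to 0.384 CPM, which bounds the level for counting error only. The other 7 members were detected in nearly every library, with single zeros for Smad3 (ACI E2 basal replicate 1), Smad5 (6-week KO luminal replicate 2) and Smad6 (6-week WT luminal replicate 1), where 3 counts would have been 0.143, 0.362 and 0.265 CPM.

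Smad5, a BMP-activated Smad, was higher in basal than in luminal cells and was called between all 3 populations of 9 weeks. At 9 weeks its level in basal libraries was 40.3 and 35.4 CPM in WT and 29.1 and 35.9 CPM in KO rats. Mature luminal libraries held 13.9 and 13.1 CPM in WT and 9.69 and 12.6 CPM in KO rats, all below every basal library. LP libraries held 31.5 and 32.8 CPM (WT Cd49b+), 25.5 and 30.0 CPM (WT PNA+), 13.1 and 30.5 CPM (KO Cd49b+) and 12.3 and 14.7 CPM (KO PNA+). The WT LP libraries thus lay near the basal ones, and 3 of the 4 KO LP libraries lay near the mature luminal ones. Smad5 was higher in basal than in mature luminal cells by 1.70 on the log2 scale (SE 0.25, 4 against 4 libraries, edgeR adjusted p = 0.000179). It was also higher in LP than in mature luminal cells, by 0.88 (SE 0.22, edgeR adjusted p = 0.0141), and in basal than in LP cells, by 0.82 (SE 0.21, edgeR adjusted p = 0.00521). These 3 calls held under each of the 22 to 23 alternatives tried for them.

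Smad6, the inhibitor of BMP signalling, ran from 1.52 to 17.1 CPM in the libraries of 9 weeks. Its level in basal libraries was 7.10 and 10.1 CPM in WT and 7.52 and 5.78 CPM in KO rats. Mature luminal libraries held 2.55 and 4.17 CPM in WT and 1.52 and 3.32 CPM in KO rats, again all below the basal ones. LP libraries held 8.68 and 13.2 CPM (WT Cd49b+), 6.90 and 13.8 CPM (WT PNA+), 3.75 and 17.1 CPM (KO Cd49b+) and 2.47 and 3.57 CPM (KO PNA+), so that KO LP libraries held both the lowest LP values and the highest value of all 16. Smad6 was higher in basal than in mature luminal cells by 1.59 (SE 0.54, edgeR adjusted p = 0.0319) and in LP than in mature luminal cells by 1.53 (SE 0.49, edgeR adjusted p = 0.0378), but not in basal against LP cells (0.06, 95% interval -0.90 to 1.03). The first call was lost without KO basal 1, WT basal 2, KO mature luminal 1 or either WT mature luminal library, and over all alternatives its adjusted p by edgeR or DESeq2 ran from 0.0015 to 0.108. The second was lost without any 1 of the 4 mature luminal libraries, WT Cd49b+ 1 or 2 or WT PNA+ 2, its adjusted p running from 0.00702 to 0.115.

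Smad2, which carries TGF-beta and activin signals, was in a narrower range. In basal libraries it was 46.2 and 38.9 CPM in WT and 28.3 and 30.3 CPM in KO rats, and in mature luminal libraries 26.7 and 26.98 CPM in WT and 34.5 and 33.3 CPM in KO rats. In LP libraries the lowest value was 33.7, the median 37.9 and the highest 46.1 CPM. The genotypes lay in opposite order in basal and mature luminal cells, and the populations overlapped. Over both genotypes Smad2 was higher in basal than in mature luminal cells by 0.40 (SE 0.13, edgeR adjusted p = 0.0219) and in LP than in mature luminal cells by 0.33 (SE 0.11, edgeR adjusted p = 0.0448). The first call was lost without KO basal 2, WT basal 1, KO mature luminal 2 or WT mature luminal 1 (0.38 to 0.39). The second was lost without any 1 of 13 libraries (0.30 to 0.41), which were all but WT basal 1, WT basal 2 and KO PNA+ 2, the range of adjusted p without 1 library or under another setting being 0.00445 to 0.149 by edgeR or DESeq2.

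Of the remaining members, only Smad7 was called, and only between basal and LP cells. Smad1, a BMP-activated Smad, had its lowest, median and highest levels at 163, 189 and 227 CPM in basal, 117, 179 and 225 CPM in LP and 72.1, 145.5 and 184 CPM in mature luminal libraries. Smad4, the common partner, was at 84.4, 110.5 and 136 CPM in basal, 120.5, 155 and 186 CPM in LP and 101.5, 124 and 149.9 CPM in mature luminal libraries. Smad7, an inhibitor of TGF-beta and BMP receptors, was at 28.7, 117 and 222 CPM in basal and 24.4, 68.8 and 92.2 CPM in LP libraries, and was higher in basal than in LP cells by 0.97 (SE 0.31, edgeR adjusted p = 0.0196). That call was lost with PNA+ and Cd49b+ libraries summed (0.90) and without KO basal 1 (0.81, edgeR adjusted p = 0.0868) or WT basal 1 (0.53, edgeR adjusted p = 0.198), the libraries of each genotype with the most Smad7, and over all alternatives the adjusted p by edgeR or DESeq2 ran from 1.86e-05 to 0.198.

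In all, 3 of 7 members were called in basal against mature luminal cells, where 38.7% of all 12809 genes were called (20.4% higher in basal cells, the direction of these 3). The members without overlap were 2 of 7, against 33.8% of all genes. In LP against mature luminal cells 3 of 7 members were called, all higher in LP (11.7% of all genes, with 23.4% called in either direction), and in basal against LP cells 2 of 7 were called, both higher in basal cells (27% of all genes, 50% in either direction). The median difference of the 7 members was 0.67, 0.29 and 0.30 in these 3 comparisons, beside medians of -0.04, -0.07 and 0.06 over all genes. The CPM scale and that of the fits differ by 0.18 for basal against mature luminal and 0.21 for basal against LP cells; Smad2 had less CPM in basal than in LP cells and a fitted difference of 0.07 (SE 0.11). No member was called between PNA+ and Cd49b+ progenitors (0 of 7, 0% of 11725 genes, and 0 at an unadjusted p under 0.05 by edgeR, 0 by DESeq2), and the intervals reached from -2.13 to 0.20 for Smad6 and from -0.48 to 0.23 for Smad2.

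With the library number as a block within each genotype, 5 of 7 members were called in each of the 3 comparisons of populations, beside 54.1% of all genes in basal against mature luminal, 45.8% in LP against mature luminal and 63.2% in basal against LP cells. Basal cells were then also higher than mature luminal cells in Smad1, by 0.74 (SE 0.14, edgeR adjusted p = 0.000739), and in Smad7, by 0.86 (SE 0.14, edgeR adjusted p = 0.000254). LP cells were higher than mature luminal cells in Smad1 by 0.34 (edgeR adjusted p = 0.0383) and in Smad4 by 0.23 (edgeR adjusted p = 0.0223). Basal cells were higher than LP cells in Smad1 by 0.40 (edgeR adjusted p = 0.0105) and in Smad3 by 0.37 (edgeR adjusted p = 0.00718), and lower in Smad4, by -0.24 (edgeR adjusted p = 0.0122).

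Smad6 moved with markers of endothelial cells, and in LP libraries pericyte and fibroblast markers ran alike. The 6 endothelial markers (Pecam1, Cdh5, Kdr, Tek, Emcn and Esam) were detected in each of the 16 libraries, although the sort stained for CD31, the product of Pecam1. Their sum lay between 114 and 887 CPM in LP, between 57.5 and 115.5 CPM in mature luminal and between 72.2 and 162 CPM in basal libraries, and 6 of 6 were called higher in LP than in mature luminal cells. The library highest in these markers was KO Cd49b+ 2, which was also highest in Smad6. It held 320 CPM of pericyte and 1071 CPM of fibroblast markers, against 89.0 to 131 and 205 to 428 CPM in the other KO LP libraries. WT LP libraries held 208 to 353 and 535 to 1461 CPM. Over the 16 libraries Spearman's rho of Smad6 with the endothelial sum was 0.72, and it was 0.95 over the 8 LP libraries. This is a description of libraries that share a sort and may share animals. No rho of Smad6 with pericyte or fibroblast markers was taken. The same values for Smad5 were 0.37 and 0.88. Between basal and mature luminal cells 0 of the 6 endothelial markers were called by edgeR, with 0 at an unadjusted p under 0.05. In that comparison 2 of 4 fibroblast markers tested (median difference 1.79, sums of 496.6 to 2883 CPM in basal and 115.9 to 891 CPM in mature luminal libraries) and 2 of 4 pericyte markers (median 1.14, sums of 58.7 to 229 CPM and 73.4 to 186 CPM) were called higher in basal cells. Against LP cells, 3 of 4 fibroblast markers were called higher in basal cells and 5 of 6 endothelial markers lower. The part of RNA from these other cells in the Smad values was not tested.

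**Figure D1:**
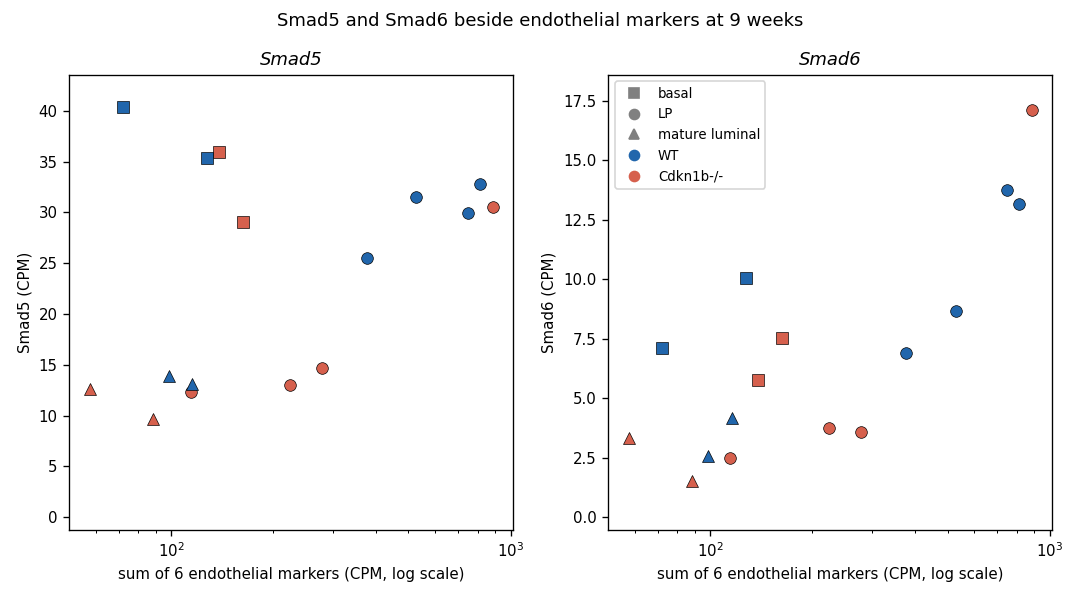
Levels of Smad5 and Smad6 (CPM, y axis) against the summed level of 6 endothelial markers (CPM, log x axis) in the 16 libraries of 9 weeks, 1 point for each library, with shapes for population and colours for genotype. The LP libraries spread from 114 to 887 CPM of endothelial markers, with KO Cd49b+ 2 at the upper end of both axes for Smad6.

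At 4 weeks the order of basal and luminal cells was the same for Smad5. Its basal levels were 23.9, 32.3 and 29.1 CPM in WT and 23.2 and 27.5 CPM in KO rats, and its luminal levels 13.5, 10.9 and 12.03 CPM in WT and 8.91, 11.03 and 10.03 CPM in KO rats. No luminal library reached a basal one, and the difference was 1.41 (SE 0.22, 5 against 6 libraries, edgeR adjusted p = 0.000205). Smad6 was at 4.50, 9.47 and 6.05 CPM in WT basal and 6.09 and 9.55 CPM in KO basal libraries, against 4.73, 5.03 and 3.85 CPM in WT and 3.07, 3.96 and 3.27 CPM in KO luminal libraries. The ranges overlapped between 4.50 and 5.03 CPM, and Smad6 was higher in basal cells by 1.00 (SE 0.30, edgeR adjusted p = 0.0211). This call was lost without WT basal 2, KO basal 2 or WT luminal 3 (0.80 to 0.95). Smad2 was at 84.9, 87.0 and 93.9 CPM in WT and 85.8 and 65.1 CPM in KO basal libraries, and at 86.8, 46.4 and 57.8 CPM in WT and 38.6, 64.1 and 49.4 CPM in KO luminal libraries. It was higher in basal cells by 0.66 (SE 0.23, edgeR adjusted p = 0.0398), a call lost without any 1 of 7 libraries (WT basal 2 and 3, KO basal 1, WT luminal 2 and 3, KO luminal 1 and 3; 0.56 to 0.66).

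These 3 of 7 members stood beside 35.1% of 12082 genes called at 4 weeks (20.3% higher in basal cells), and the 1 member without overlap beside 26.1% of all genes. With the animal as a block 5 of 7 were called, beside 43% of all genes, Smad7 being higher in basal cells by 0.82 (SE 0.22, edgeR adjusted p = 0.0101) and Smad4 lower by -0.99 (SE 0.25, edgeR adjusted p = 0.00759). Endothelial markers were low at 4 weeks, between 9.47 and 16.7 CPM in basal and between 4.37 and 29.5 CPM in luminal libraries, and 0 of 6 were called between the cell types. Fibroblast markers were higher in basal libraries (967 to 6073 CPM against 31.7 to 350.1 CPM, 4 of 4 tested called), and their part in the differences was not tested.

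At 6 weeks and in the E2 experiment no member was called between basal and luminal cells. At 6 weeks Smad5 was at 44.4, 41.9 and 62.4 CPM in WT and 34.5 and 36.7 CPM in KO basal libraries, and at 19.3 and 12.8 CPM in WT luminal and 13.7 CPM in KO luminal replicate 1, with 0 counts in the library labelled KO luminal replicate 2. All basal libraries were above all luminal ones (11.1% of all genes did not overlap), and the difference was 2.02 with a 95% interval of -0.26 to 4.30 (edgeR adjusted p = 0.298). Smad3 differed by 1.70 (SE 0.52, edgeR adjusted p = 0.0958), and it was called without KO luminal replicate 1, as was Smad5, or without KO luminal replicate 2. The count of 0 of 7 stood beside 5.65% of 11921 genes; 1 member had an unadjusted p under 0.05 and 1, Smad3, was called by DESeq2. In the E2 experiment 0 of 7 members were called by edgeR or DESeq2, 0 had an unadjusted p under 0.05, and 2.45% of 10446 genes were called. There Smad5 overlapped, with basal libraries from 45.1 to 81.9 CPM (median 61.6) and luminal libraries from 0.172 to 73.7 CPM (median 43.0), and its interval was -1.01 to 2.80.

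**Figure D2:**
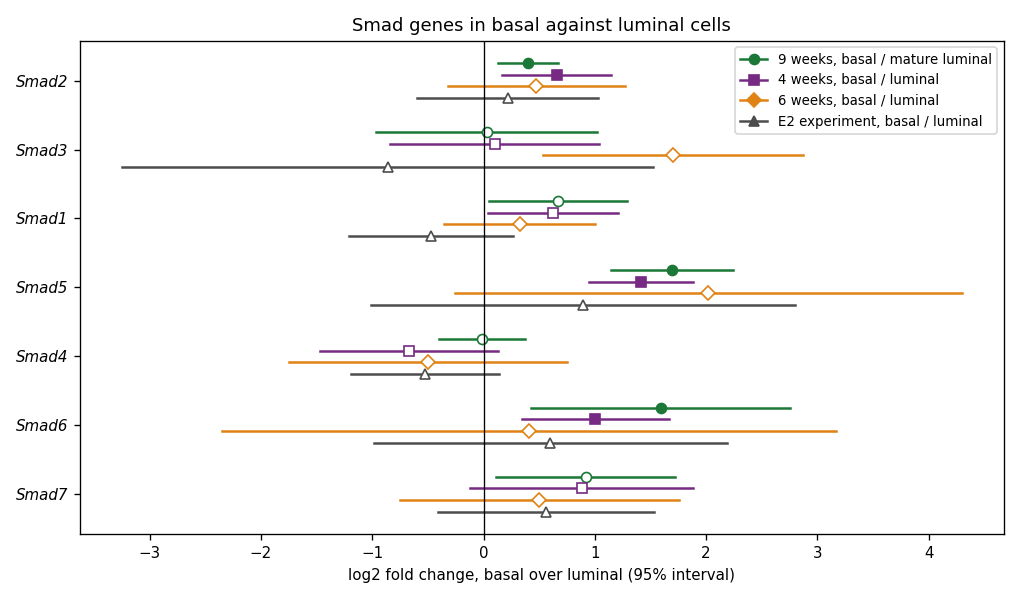
Log2 difference between basal and luminal cells (x axis, with its 95% interval as a line) for the 7 Smad genes tested (y axis) at 9, 4 and 6 weeks and in the E2 experiment, with filled symbols for genes called by edgeR. Luminal cells are the mature luminal ones at 9 weeks, and the luminal fractions of the sets may differ. Smad5 lies to the right of 0 in each set (1.70 at 9 weeks, 1.41 at 4 weeks), and the intervals at 6 weeks and in the E2 experiment are wide.

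The promoters of Smad5, the member called between all populations of 9 weeks, and of Smad3, which split the KO libraries by number and differed between ages (given next), are shown as 250 bases before the start of the gene. They come from RefSeq on build GRCr8, which is not the rn6 build of the counts. Smad5 is at chr17:7882609-7882858 and Smad3 at chr8:73132325-73132574, both on the minus strand and written 5′ to 3′. Capitals mark a match to GGAGCC, read here from the other strand.
Smad5: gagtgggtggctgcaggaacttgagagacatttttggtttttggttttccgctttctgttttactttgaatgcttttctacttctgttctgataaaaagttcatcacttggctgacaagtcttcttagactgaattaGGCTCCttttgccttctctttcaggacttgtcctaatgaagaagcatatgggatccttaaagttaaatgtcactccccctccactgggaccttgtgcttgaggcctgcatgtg
Smad3: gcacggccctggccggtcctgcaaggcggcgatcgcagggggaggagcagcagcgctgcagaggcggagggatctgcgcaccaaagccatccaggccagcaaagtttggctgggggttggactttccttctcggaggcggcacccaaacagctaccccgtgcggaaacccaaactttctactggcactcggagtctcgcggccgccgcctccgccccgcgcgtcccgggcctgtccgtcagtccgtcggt

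Windows were found for 7 of the 8 members, Smad6 having none in the table. Both strands were searched for the Smad-binding letters CAGAC and GTCTAGAC, neither of which holds the other, and for the BMP-type letters GGCGCC and GGAGCC. Among all 33469 windows of the same length, CAGAC was in 42.9%, GTCTAGAC in 0.173%, GGCGCC in 8.69% and GGAGCC in 23%. Among the 7 members, CAGAC was in 1 (Smad9), GTCTAGAC in 0, GGCGCC in 3 and GGAGCC in 2. The Smad3 window held none of them. A match is a run of letters and not a measured binding site.

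Between genotypes at 9 weeks the members were read in 3 populations. Smad7 had the same order in all of them. In basal libraries it was at 222 and 149 CPM in KO and at 85.7 and 28.7 CPM in WT rats. In mature luminal libraries it was at 90.7 and 88.6 CPM in KO and at 53.3 and 29.1 CPM in WT rats. In LP libraries it was at 84.4 and 92.2 CPM (Cd49b+) and 69.8 and 78.6 CPM (PNA+) in KO, and at 67.7 and 24.4 CPM (Cd49b+) and 57.8 and 26.3 CPM (PNA+) in WT rats. Every KO library was above every WT library of its population, and WT libraries of number 2 (24.4 to 29.1 CPM) were below those of number 1 (53.3 to 85.7 CPM). Lymphoid markers, 4 of which were tested, were also higher in KO than in WT libraries of each population, at low levels. Their sum was 1.63 and 2.15 CPM in KO and 0.139 and 0.599 CPM in WT basal libraries, and 0.406 to 1.95 CPM in KO and 0.109 to 0.271 CPM in WT LP libraries. In mature luminal libraries it was 0.812 and 1.64 CPM in KO and 0.562 and 0.728 CPM in WT rats, and 0 of 4 were called by edgeR. Within WT rats, number 2 held more than number 1 in basal, Cd49b+ (0.271 and 0.164 CPM) and mature luminal cells, the reverse of Smad7. In WT PNA+ cells the sums were close (0.109 and 0.111 CPM). Over the 16 libraries Spearman's rho of Smad7 with that sum was 0.665, and the part of lymphoid cells in the Smad7 values was not tested. The difference was 1.79 in basal (SE 0.54, edgeR adjusted p = 0.358), 1.20 in mature luminal (SE 0.53, edgeR adjusted p = 0.659) and 0.88 in LP cells (SE 0.37, edgeR adjusted p = 0.229), so that Smad7 was not called in any population.

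Smad3, which carries TGF-beta and activin signals, split the KO libraries by number. KO libraries of number 1 held 144 CPM in basal, 174 CPM in Cd49b+, 177 CPM in PNA+ and 220 CPM in mature luminal cells. KO libraries of number 2 held 61.5, 52.4, 56.5 and 70.1 CPM in the same order. WT libraries held 63.4 and 72.0 CPM in basal, 49.1 and 56.5 CPM in Cd49b+, 42.0 and 62.0 CPM in PNA+ and 43.3 and 73.8 CPM in mature luminal cells. The 4 KO libraries of number 1 lay above the other 12 libraries, and those of number 2 lay within the WT range or close to it. The genotype differences were 1.17 in LP (SE 0.47, edgeR adjusted p = 0.2), 1.40 in mature luminal (SE 0.67, edgeR adjusted p = 0.705) and 0.65 in basal cells (SE 0.66, edgeR adjusted p = 0.811). Without the KO libraries of number 1 they were 0.04, 0.27 and -0.13, and without those of number 2 the LP difference was 1.81 and was called (edgeR adjusted p = 0.00399, in a range of 0.00399 to 0.984 over all alternatives).

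**Figure D3:**
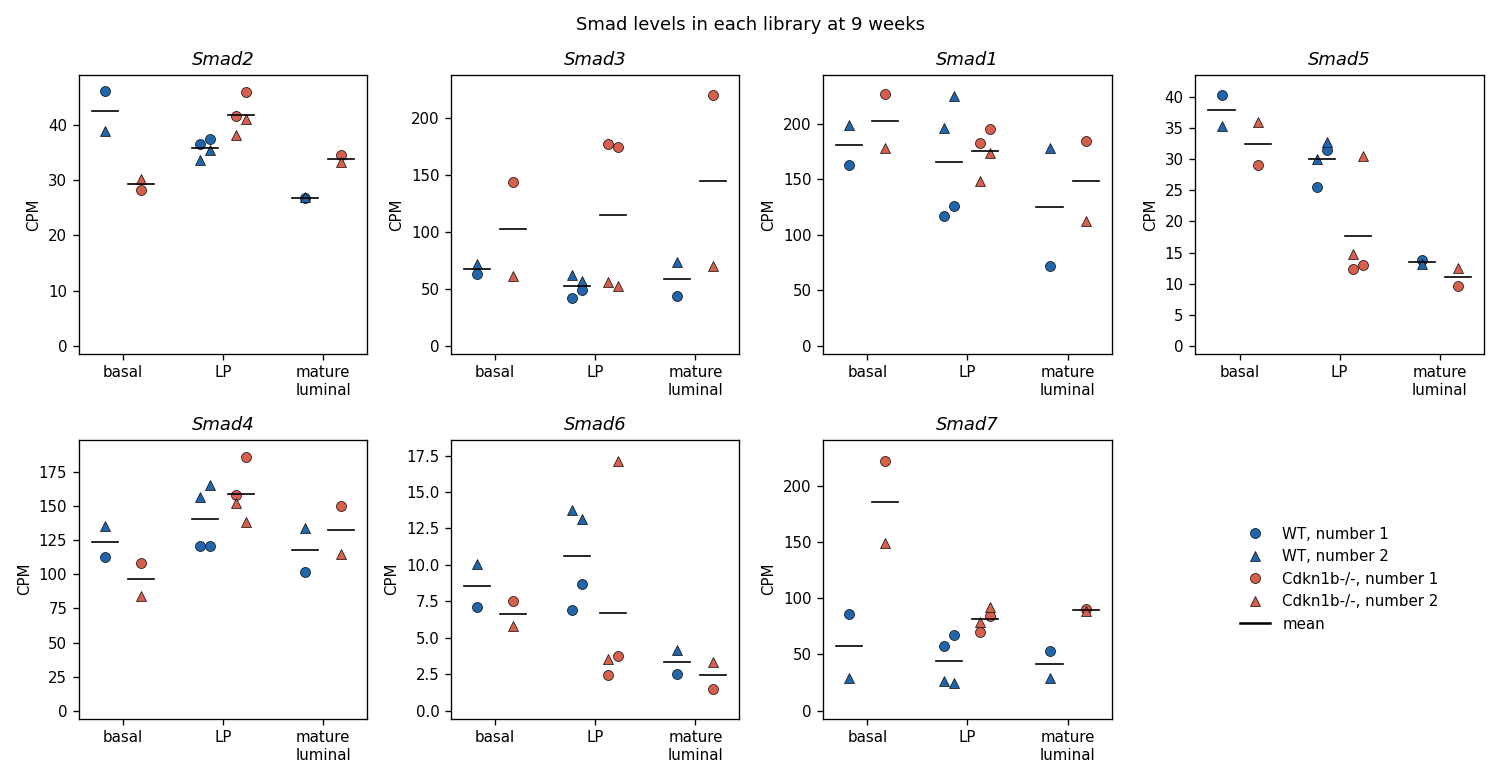
Levels of the 7 detected Smad genes at 9 weeks, in CPM, with 1 point for each library, coloured by genotype and shaped by library number, and a line at each mean. The Smad3 points of KO number 1 (144 to 220 CPM) stand above all others (42.0 to 73.8 CPM), and KO points of Smad7 stand above WT points within each population.

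Smad2 had a different order in the 3 populations, as the values above show. KO basal libraries were below WT basal ones by -0.47 (SE 0.18, edgeR adjusted p = 0.443), KO mature luminal libraries above WT ones by 0.42 (SE 0.18, edgeR adjusted p = 0.637), and KO LP libraries (38.3 to 46.1 CPM) above WT ones (33.7 to 37.5 CPM) by 0.24 (SE 0.13, edgeR adjusted p = 0.34). None overlapped and none was called by edgeR. DESeq2 called the basal difference (-0.51, adjusted p = 0.0355, in a range of 0.0355 to 0.939 over all alternatives). The genotype difference in LP less that in basal cells was 0.71 (SE 0.22, edgeR adjusted p = 0.56). With library totals in place of TMM, the LP difference was -0.07, in a scaling that moved the median of all genes by -0.30.

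Smad5 was lower in 3 of the 4 KO LP libraries than in any WT LP library, and KO Cd49b+ 2, the library highest in endothelial markers, lay within the WT range. Its difference in LP was -0.75 (SE 0.25, edgeR adjusted p = 0.121), and without KO Cd49b+ 2 it was -1.14 (edgeR adjusted p = 0.00203) and was called, as was Smad6; over all alternatives the adjusted p of Smad5 ran from 0.00203 to 0.685. Endothelial markers were 224 and 114 CPM in KO LP libraries of number 1 and 887 and 278 CPM in those of number 2, against 378 to 813 CPM in WT LP libraries, so they were low in the same 3 KO libraries. Pericyte markers (89.0 to 131 CPM) and fibroblast markers (205 to 428 CPM) were low in these 3 libraries too. WT LP libraries held 208 to 353 and 535 to 1461 CPM of them, and KO Cd49b+ 2 held 320 and 1071 CPM. The part of these markers in the genotype difference of Smad5 was not tested. In basal cells Smad5 differed by -0.16 (95% interval -0.90 to 0.59) and in mature luminal cells by -0.20 (-0.96 to 0.56). The intervals also included 0 for Smad1, at 0.10 in LP (95% interval -0.51 to 0.72), 0.22 in basal (-0.66 to 1.09) and 0.33 in mature luminal cells (-0.54 to 1.21), and Smad4, at 0.19 in LP (-0.19 to 0.58), -0.31 in basal (-0.86 to 0.24) and 0.25 in mature luminal cells (-0.30 to 0.80).

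No member was called between genotypes in any population of 9 weeks. In LP cells 0 of 7 were called beside 3.4% of 12809 genes, 3 had an unadjusted p under 0.05 by edgeR, DESeq2 called 0, and 2 of 7 did not overlap beside 13.2% of all genes. In basal cells 0 of 7 were called beside 0.0546% of genes, 2 had an unadjusted p under 0.05, DESeq2 called 1, and 3 of 7 did not overlap beside 37.1% of genes. In mature luminal cells 0 of 7 were called beside 0.133% of genes, 2 had an unadjusted p under 0.05, DESeq2 called 0, and 3 of 7 did not overlap beside 29.2% of genes. The genotype difference in LP was called different from that in basal or in mature luminal cells for 0 of 7 members by edgeR (0% of genes in both), with 1 and 0 at an unadjusted p under 0.05 and 1 (Smad2) and 0 by DESeq2.

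At 4 weeks no member was called between genotypes. In basal cells the 7 differences lay between -0.47 and 0.27, 0 of 7 were called (0% of 12082 genes), 0 had an unadjusted p under 0.05, 0 were called by DESeq2, and 0 of 7 were without overlap beside 9.61% of genes. In luminal cells all 7 differences were below 0, between -0.78 and -0.10 (median -0.43, beside -0.10 over all genes), with 0 called by edgeR (0% of genes) or DESeq2, 0 at an unadjusted p under 0.05, and 1 of 7 without overlap beside 11.5% of genes. That member was Smad4, at 164, 179 and 162 CPM in WT and 45.5, 118 and 136 CPM in KO luminal libraries. All 3 KO values were below the WT ones, 1 of them far below, and the interval of the difference was -1.84 to 0.28. Smad7 at 4 weeks was at 86.3, 45.8 and 25.1 CPM in WT basal and 18.9 and 73.2 CPM in KO basal libraries, without the order seen at 9 weeks, and its interval was -1.64 to 1.36.

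At 6 weeks the libraries were few and the intervals wide. Smad7 was at 11.8, 31.8 and 12.7 CPM in WT basal and 37.1 and 78.6 CPM in KO basal libraries, KO above WT, with a difference of 1.72 (SE 0.74, edgeR adjusted p = 0.538). Smad3 was at 141, 119 and 138 CPM in WT basal and 43.9 and 44.4 CPM in KO basal libraries, the reverse of the order in the 9-week libraries of number 1, with a difference of -1.48 (SE 0.71, edgeR adjusted p = 0.579). The same KO basal libraries held 2802 and 1816 CPM of fibroblast markers against 59.3 to 484.5 CPM in WT, 29.5 and 11.1 CPM of endothelial markers against 0.362 to 6.37 CPM, 41.8 and 40.96 CPM of pericyte markers against 3.12 to 11.7 CPM, and 5864 and 7417 CPM of basal markers against 2819 to 3770 CPM, and the part of these in the Smad values was not tested. In luminal cells Smad3 was at 36.2 and 58.3 CPM in WT and 21.0 and 3.02 CPM in KO libraries, the last in the library labelled KO replicate 2 that stood apart, and the difference was -1.98 (SE 0.77, edgeR adjusted p = 0.243). Genotypes did not overlap for 4 of 7 members in basal cells, beside 40.9% of 11921 genes, and for 5 of 7 in luminal cells, beside 49.6%. By edgeR 0 of 7 were called in either cell type (0% of genes), 1 had an unadjusted p under 0.05 in each, and DESeq2 called 0 in each. Without KO luminal replicate 1, 2 members (Smad3 and Smad5) were called in luminal cells, with KO replicate 2 as the lone KO library.

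Smad3 was also the member that differed between the ages. In basal libraries it was at 12.2, 19.0 and 22.1 CPM (WT) and 8.28 and 32.1 CPM (KO) at 4 weeks. At 6 weeks it was at 141, 119 and 138 CPM (WT) and 43.9 and 44.4 CPM (KO), all above the 4-week values. The difference was 2.02 (SE 0.51, 5 against 5 libraries, edgeR adjusted p = 0.0404). The call was lost without any 1 of 12 of the 20 libraries of both ages (4-week WT basal 1, 2 and 3, KO basal 1, WT luminal 1, 2 and 3 and KO luminal 2; 6-week WT basal 1 and 2 and KO basal 1 and 2) and with library totals, the adjusted p by edgeR or DESeq2 running from 0.0034 to 0.206. It was the 1 of 7 members called in basal cells, beside 3.2% of 12572 genes (1.36% higher at 6 weeks), and 2 of 7 members, Smad3 and Smad5, were without overlap beside 7.51%. In luminal cells 0 of 7 were called by edgeR or DESeq2 (0.74% of genes), 0 had an unadjusted p under 0.05 and 0 were without overlap beside 2.81% of genes. Smad3 there was at 7.86 to 33.0 CPM at 4 weeks and 3.02 to 58.3 CPM at 6 weeks, and its interval was -0.72 to 1.35. Age and collection cannot be told apart, and the 6-week libraries were shallower (7985619 to 16390460 counts against 14674040 to 23045345). Fibroblast markers in basal libraries were 59.3 to 2802 CPM at 6 and 967 to 6073 CPM at 4 weeks. Basal markers were 2819 to 7417 CPM at 6 and 7677 to 9235 CPM at 4 weeks, and luminal markers 3438 to 5949 and 2373 to 5713 CPM. The 6-week WT basal libraries, highest in Smad3, held 2819 to 3770 CPM of basal and 4502 to 5949 CPM of luminal markers. The part of these markers in the Smad3 difference was not tested.

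**Figure D4:**
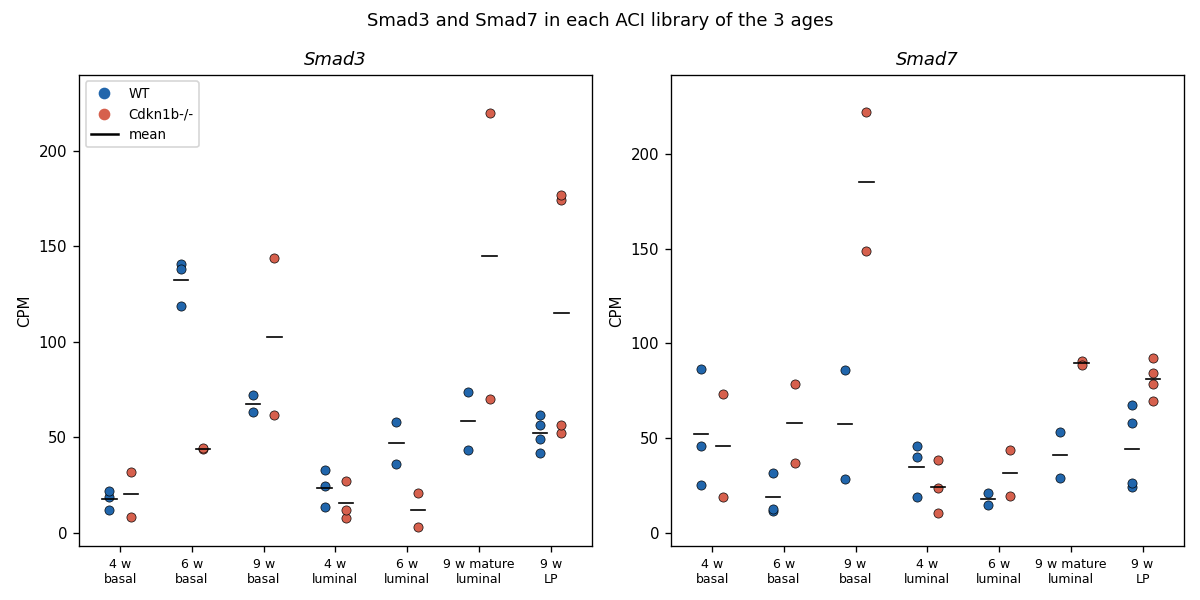
Levels of Smad3 and Smad7 in basal and luminal libraries of 4, 6 and 9 weeks, in CPM, 1 point for each library, with colours for genotype and a line at each mean. Basal Smad3 is between 8.28 and 32.1 CPM at 4 weeks and between 43.9 and 141 CPM at 6 weeks.

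E2 treatment was compared with control in basal and luminal cells over both strains, and ACI with BN rats over both treatments. Smad6 had the highest values after E2 in basal cells. It was at 20.0 and 4.95 CPM in ACI control, 6.21 CPM in BN control, 49.5 and 12.4 CPM in ACI E2 and 47.9 CPM in BN E2 basal libraries. The value of 49.5 CPM came from the ACI E2 replicate 1 that stood apart. The treatments overlapped, since ACI E2 replicate 2 was below ACI control replicate 1, and the difference was 1.73 with a 95% interval of -0.96 to 4.42 (edgeR adjusted p = 1). Smad5 in luminal cells was at 52.8, 73.7 and 54.9 CPM in the control libraries and at 0.172 and 24.6 CPM in ACI E2 and 33.2 CPM in BN E2 libraries. All 3 E2 values were below the controls, the lowest resting on 3 counts in the ACI E2 replicate 1 that stood apart, and the difference was -1.83 with an interval of -5.50 to 1.85 (edgeR adjusted p = 0.999).

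Smad3 in basal cells was at 70.7 and 24.01 CPM in ACI control and 0 and 65.7 CPM in ACI E2 libraries, against 77.8 and 82.7 CPM in the BN control and E2 libraries. The BN libraries were above the ACI ones, with an interval of -5.66 to 3.84 for ACI against BN. Smad2 in luminal cells was at 53.7, 38.6, 105 and 43.7 CPM in ACI and 30.7 and 37.9 CPM in BN libraries, without overlap, with an interval of -0.53 to 2.18. In each of the 4 comparisons of treatment and strain 0 of 7 members were called by edgeR (0% of 10527 to 11499 genes) or DESeq2 and 0 had an unadjusted p under 0.05. Those without overlap were 0 of 7 for E2 in basal cells (10.8% of genes), 1 of 7 for E2 in luminal cells (11.8%), 1 of 7 for strain in basal cells (8.73%) and 1 of 7 for strain in luminal cells (15.3%). Without both libraries of the first ACI E2 animal, again 0 of 7 were called in each. Endothelial markers in basal libraries of this experiment ran from 0.792 to 940 CPM, pericyte markers from 90.6 to 2519 CPM and fibroblast markers from 424 to 11430 CPM. The BN E2 basal library was lowest in the endothelial and pericyte sums and highest in the fibroblast sum. The part of these markers in the Smad6 values was not tested.

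**Figure D5:**
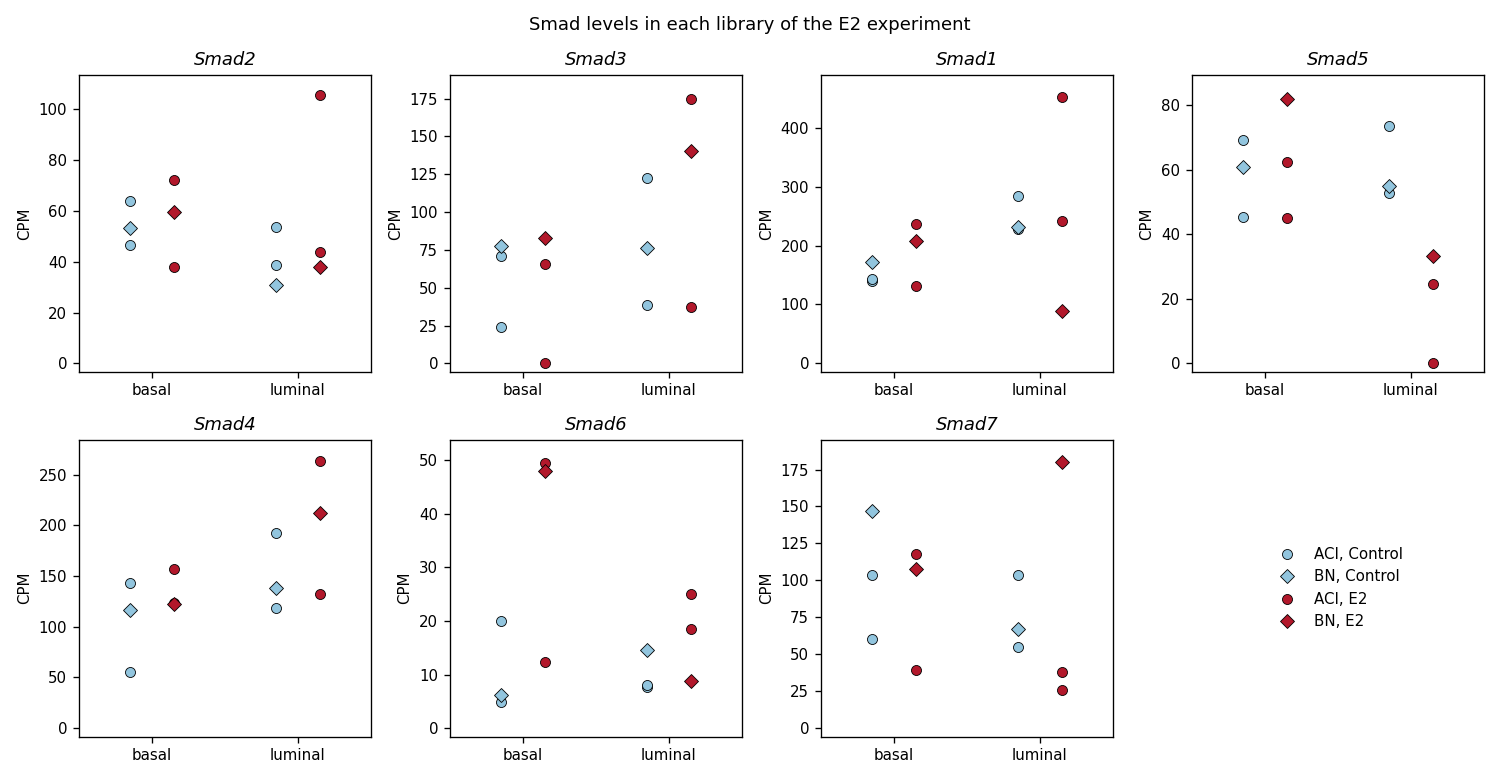
Levels of 7 Smad genes in basal and luminal libraries of ACI (circles) and BN (diamonds) rats with control treatment or E2, in CPM, 1 point for each library. Luminal Smad5 is between 52.8 and 73.7 CPM in control and between 0.172 and 33.2 CPM in E2 libraries, and the treatments overlap for Smad6.

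Around the Smads, 68 of a list of 71 genes of the pathway were counted: ligands, receptors, extracellular modulators, partners and regulators, and targets. Between basal and mature luminal cells of 9 weeks 33 of 65 tested were called higher in basal cells and 7 lower, beside 20.4% of all genes called higher and 18.4% lower. Of the extracellular modulators, which hold ligands away from receptors or store them in the matrix, 13 of 16 were called higher and 0 lower; the fibroblast and pericyte markers given above moved with them, and their part was not tested. Fst, which binds activin, was at a mean of 222 CPM in basal and 7.41 CPM in mature luminal cells (difference 5.22, SE 0.75, edgeR adjusted p = 0.000131). Sostdc1, a BMP antagonist, was at 62.1 and 0.946 CPM (6.23, SE 0.90, edgeR adjusted p = 0.000131). Ltbp2 and Ltbp4, proteins of the latent TGF-beta family of the matrix, were higher by 4.89 and 4.13. Among ligands 6 of 13 were called higher and 4 lower, with Bmp7 at 212 and 22.2 CPM (3.41, SE 0.48, edgeR adjusted p = 0.000104). Of the receptors 6 of 12 were called higher and 2 lower, and of the targets 7 of 15 higher and 1 lower, led by Id4 at 212 and 10.4 CPM (4.57, SE 0.62, edgeR adjusted p = 9.23e-05).

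LP cells were higher than mature luminal cells in 16 of 65 and lower in 0 (11.7% of all genes in each direction). These included the receptors Acvrl1 (1.95, SE 0.54, edgeR adjusted p = 0.0207) and Eng (1.77, SE 0.45, edgeR adjusted p = 0.0143), both known from endothelial cells. The call of Acvrl1 was lost without KO mature luminal 2 or either WT mature luminal library (edgeR adjusted p up to 0.0892) and that of Eng without KO mature luminal 2 or WT mature luminal 1 (up to 0.0643). They also included the ligand Bmp4, at 30.4 and 5.62 CPM (2.38, SE 0.54, edgeR adjusted p = 0.00829). The 6 endothelial markers were higher in the same comparison. Basal cells were higher than LP cells in 22 of 65 and lower in 11 (27% and 23% of all genes), with Bmp3, a BMP that does not activate BMP Smads, at 0.444 CPM in basal and 8.44 CPM in LP cells (-4.09, SE 0.63, edgeR adjusted p = 0.000145). At 4 weeks 31 of 64 were higher and 7 lower in basal cells (20.3% and 14.8% of all genes), with Fst at 506 and 10.4 CPM and Inhbb, an activin subunit, at 1.89 and 45.2 CPM (-4.55, SE 0.43, edgeR adjusted p = 3.97e-06). At 6 weeks 12 of 65 were higher and 1 lower (3.49% and 2.16% of all genes). In the E2 experiment 6 of 63 were higher and 0 lower (1.58% of all genes higher), and each of these calls was lost in part of its alternatives: Eng in 6 of 19, Bmp2 and Ltbp4 in 9 of 19 each, Tgfbr3 in 9 of 18, Bmpr2 in 14 of 19 and Id3 in 15 of 19. Basal libraries there had median sums of 1100 CPM of pericyte, 362 CPM of endothelial and 1810 CPM of fibroblast markers. Luminal libraries had 59.2, 37.7 and 306 CPM, with overlapping ranges. The part of these markers in the 6 calls was not tested.

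Between genotypes 2 pathway genes were called, both in LP cells of 9 weeks and out of 65 tested, beside 3.4% of all genes. That test took the PNA+ and Cd49b+ libraries of a number as separate, although they deviated together. Tgfb2, a TGF-beta ligand, was at a mean of 88.0 CPM in KO and 40.7 CPM in WT libraries (1.14, SE 0.28, edgeR adjusted p = 0.0448), and Bmpr1b, a BMP receptor, at 4.13 and 12.3 CPM (-1.56, SE 0.30, edgeR adjusted p = 0.013). The call of Tgfb2 was lost in 20 of 27 alternatives, among them the loss of any 1 library but WT basal 1, WT basal 2 and KO Cd49b+ 2 (adjusted p by edgeR or DESeq2 from 0.00172 to 0.622). That of Bmpr1b was lost in 2 of 27, without KO number 1 and with PNA+ and Cd49b+ libraries summed (7.8e-06 to 0.546). The median difference of the 15 targets was -0.74, beside 0.03 over all genes, with 0 of 15 called by edgeR and 7 at an unadjusted p under 0.05 (18.3% of all genes). In the same comparison endothelial markers were below 0 in 6 of 6 (median -0.70), and the medians were -0.91 for pericyte and -1.04 for fibroblast markers, with none called by edgeR, and their part in the target values was not tested. Between 6 and 4 weeks in basal cells Nedd4l, a ubiquitin ligase that acts on Smads, was higher (354 and 122 CPM, 1.24, SE 0.30, edgeR adjusted p = 0.0304), and Id1, a BMP target, was lower (4.71 and 58.3 CPM, -3.47, SE 0.79, edgeR adjusted p = 0.0256), as was Bmp4 (1.40 and 6.88 CPM, -2.30, SE 0.60, edgeR adjusted p = 0.0435), where 1.36% of all genes were called higher and 1.84% lower. Each of these 3 calls was lost without 4-week KO basal 1, WT basal 1 or WT basal 2 or either 6-week KO basal library. In all, Id1 was lost in 5 of 24 alternatives (adjusted p by edgeR or DESeq2 up to 0.18), Nedd4l in 9 of 25 (up to 0.187) and Bmp4 in 13 of 24 (up to 0.243). In luminal cells Bmp3 was higher at 6 weeks (45.4 and 1.02 CPM, 4.42, SE 0.88, edgeR adjusted p = 0.0325), beside 0.39% of all genes. This call was lost in 10 of 24 alternatives, without any 1 of the 6 luminal libraries of 4 weeks, 4-week WT basal 1 or 2, 6-week KO luminal 1 (2.46) or 6-week WT luminal 1 (edgeR adjusted p up to 0.14). In the other 10 comparisons of genotype, E2 and strain 0 pathway genes were called by edgeR, with 0 to 19 at an unadjusted p under 0.05.

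Over the 16 libraries of 9 weeks, which share a sort and may share animals, the genes whose levels followed Smad2 to Smad7 most closely by rank had Spearman's rho between 0.826 and 0.965. They were Tubgcp3, Rnf115 and Actr3 for Smad2, Bcl2l11, Gna15 and Spryd7 for Smad3, Nbr1, Arih2 and Mgea5 for Smad4, Palm2, Pkd2 and Fam198b for Smad5, Ripk2, Srgn and Arhgap31 for Smad6, and Ccr7, Surf6 and Ccl19 for Smad7. Among the members themselves the highest rho was that of Smad5 with Smad6 (0.759), followed by Smad1 with Smad3 (0.579), and the lowest that of Smad3 with Smad5 (-0.444). These are descriptions over libraries, and the genes followed were picked from all genes for being alike.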

How the data were processed

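The deposited values were whole-number counts of reads per gene for 48 libraries, 1 column each. Per the labels and the methods, the authors made them from single-end 75-base reads of low-input SMARTer libraries, which do not keep strand, by alignment to rn6 with STAR 2.5.1b and counting with HTSeq on the refGene annotation. The counts were not normalized. Without strand, a read from a gene antisense to a Smad gene cannot be told from its own.

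Here, counts were scaled by TMM, filtered with filterByExpr by group and tested with edgeR 4.0.16 (glmQLFit and glmQLFTest) in R 4.3.3, with limma 3.58.1. The methods state DESeq2 as the study's test, and DESeq2 1.42.0 was run as an alternative. Rows that name no gene (47.1% to 77.0% of a library) were left out of library sizes. Each experiment was fitted with all its libraries, which share 1 estimate of the spread. Groups were taken from the sample labels. Nothing there ties the 9-week numbers to animals, so p-values measure the spread between these libraries, which may in part be technical. No 2 libraries of a group were duplicates in 28 pairs (lowest chi-square per gene 42.99).

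Libraries of the same genotype and number at 9 weeks deviated together (12 distinct values of r, since 2 libraries of a group mirror each other, 0.324 to 0.877 over 10970 genes), and so did those that the titles give to the same animal at 4 weeks (5 values, 0.137 to 0.69) and in the ACI rats of the E2 experiment (2 values, 0.108 to 0.205), less so at 6 weeks (3 values, 0.00368 to 0.0619). BN groups of 1 library allow no such value. Population comparisons are therefore also given with this block. Intervals are at the 95% level. Pathway genes were named as the called genes with the largest differences, at most 10 for a comparison, and the genes most like a member as the 3 with the highest rho (those of Smad1 are not reported here). The members and gene lists were chosen with earlier results of these data known. Alternatives were RLE scaling, library totals, other filters, DESeq2, the compared libraries alone, summed LP libraries, replicate blocks and each library left out. The fits were checked on simulated counts. The ages are those of the labels (4 and 6 weeks). Pr ChIP-seq peaks near Smad genes were not analysed here, since no rn6 gene positions were used. Promoters came from RefSeq (GRCr8).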

Additional observations from a re-analysis of the deposited data

Results flagged for a closer look

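A single library lay far from the others of its group in 2 of 14 sets of values examined (7 members in the 4 WT and the 4 KO LP libraries of 9 weeks). Chance marks about 1 in 20 sets of independent values. These were not independent: both marks fell on the same library, and Smad5 and Smad6 moved together (Spearman's rho 0.759 over 16 libraries). Each set also mixed PNA+ and Cd49b+ libraries. In the 4 KO LP libraries of 9 weeks, Cd49b+ number 2 was highest in Smad5, with a gap of 0.866 of the whole range to the next library, and highest in Smad6, with a gap of 0.912, both above Dixon's 95% critical value for 4 libraries. The same library held the highest sum of endothelial markers (887 CPM, against 114 to 278 CPM in the other 3 KO LP libraries). It also held the most pericyte (320 CPM) and fibroblast markers (1071 CPM) of the 4 KO LP libraries. The part of those cells in the Smad values was not tested.

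All pairs of genotype comparisons were scanned for members without overlap in both and in opposite directions. Of all genes, 37.1% in basal, 29.2% in mature luminal and 13.2% in LP cells of 9 weeks did not overlap. At 6 weeks these were 40.9% in basal and 49.6% in luminal cells. Opposite pairs were not counted over all genes. The genotype difference of Smad2 had opposite signs in the populations of 9 weeks, every KO library being below WT in basal and above WT in luminal cells. The difference in LP less that in basal cells was 0.713 (edgeR adjusted p = 0.56), and that in mature luminal less that in basal cells was 0.89, which was not tested. Across experiments, the genotype difference of Smad2 in luminal cells of 6 weeks, where KO was below WT, less that in LP cells of 9 weeks was -1.34, and less that in mature luminal cells of 9 weeks it was -1.52. Neither was tested, and the 6-week KO libraries include the luminal replicate 2 that stood apart. For Smad1 at 6 weeks the genotype difference in luminal less that in basal cells was -1.47, KO being above WT in basal and below WT in luminal cells, which was also not tested.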

How the results depend on the processing

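Alternatives were counted for each Smad difference called in the planned fit, not for all Smad differences. Smad2, Smad3, Smad5 and Smad7 were also taken between genotypes in LP, and in the basal and mature luminal cells sorted with LP. None of those was called. Of 573 alternative values of these differences, 506 kept their direction and their side of the threshold. Another 58 lost the call, 6 gained one and 3 changed sign. All 58 fell on called differences. The 506 include uncalled differences that stayed uncalled, so they do not measure how often a call held. The sign changed for Smad2 between genotypes in LP with library totals (-0.0698), and for Smad3 between genotypes in basal cells without KO basal replicate 1 (-0.0798, in a range of -0.0798 to 1.14 over the libraries left out) or with KO number 1 left out of all populations (-0.13). Of 420 alternative counts of members called, 380 were taken as the same and 40 as moved. A count near the planned one, such as 2 members in place of 3, was taken as the same, as was 0 in both. Members could thus lose or gain a call among the 380. With the replicate block, paired by genotype and number, 5 members were called in basal against mature luminal, 5 in LP against mature luminal and 5 in basal against LP cells, and paired by animal 5 were called between basal and luminal cells at 4 weeks. The block changed no other count of members called. Numbers did not pair the genotypes (16 distinct values of r, -0.436 to -0.0126): with number as a replicate block 0 members were called between genotypes in LP, and with crossed numbers, chosen after seeing the data, 2 members. With KO number 2 left out, also chosen after seeing the data, 3 members were called in LP (Smad3, Smad5 and Smad6). DESeq2 called 1 member in basal cells between genotypes, 1 for the difference of LP less basal cells and 1 between basal and luminal cells at 6 weeks. Summing PNA+ and Cd49b+ libraries left 1 member in basal against LP cells, and library totals left 0 between 6 and 4 weeks in basal cells. Leaving out 1 library at a time gave 0 to 2 members between genotypes in LP, 1 to 3 in basal against mature luminal, 1 to 3 in LP against mature luminal, 1 to 2 in basal against LP, 1 to 4 between basal and luminal cells at 4 weeks and 0 to 2 at 6 weeks, 0 to 2 between genotypes in luminal cells at 6 weeks, and 0 to 1 between 6 and 4 weeks in basal and in luminal cells. A lone library left in a group was assumed to vary like the other groups. The cause of these changes was not tested.

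Counts over all genes moved more. Between genotypes they ran from 5 to 1284 in LP (436 in the planned fit), from 0 to 168 in basal cells (7) and from 0 to 164 in mature luminal cells (17), from 0 to 330 in basal and from 0 to 2269 in luminal cells at 6 weeks (0 and 0), and between 6 and 4 weeks from 24 to 1510 in basal (402) and from 15 to 2813 in luminal cells (93). LP against mature luminal cells ran from 1490 to 5865 (2999), basal against luminal cells from 2631 to 5199 at 4 weeks (4242), from 265 to 2140 at 6 weeks (673) and from 63 to 1720 in the E2 experiment (256). DESeq2 called 73 and 85 genes by E2 and 8 and 311 by strain in basal and luminal cells, where edgeR called 0, and 1 in basal cells between genotypes at 4 weeks. PNA+ against Cd49b+ cells gave 185 genes with the block and 40 by DESeq2, and the difference of LP less basal cells up to 123. Library totals moved the median of all genes by -0.301 between genotypes in LP cells, by -0.25 in basal cells and by -0.164 in mature luminal cells, and the share of higher calls from 62.2% to 20.1% in LP, from 100% to 45.5% in basal and from 50.1% to 67.5% in LP against mature luminal cells. With RLE in place of TMM, the share of higher calls between 6 and 4 weeks in basal cells went from 42.5% to 29%. Smad9 had too few counts to pass the filter, and the limits that depth sets on the other members were not tested. The planned look at Pr peaks was not run.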
